A study of Mus musculus with 8 samples.

Results

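The genes described here encode the relay from receptor tyrosine kinases to the kinase ERK, which acts upstream of the transcriptional repressor Capicua (Cic). The list names 38 genes by their place in the pathway, covering receptors, docking and adaptor proteins, Ras proteins with their exchange factors and inhibitors, the Raf, MEK and ERK kinases, their scaffolds and some ERK substrates. Of these, 37 had probe sets annotated with that gene alone, out of 20352 genes measured, and Rps6ka2 is not analysed here. The samples were cerebella of mice 28 days old, 4 of them wild-type and 4 of genotype Cic-L-null, and each was read on 1 Affymetrix Mouse Gene 1.0 ST array. Both groups had the strain label Swiss Webster (CD-1), of mixed background. Capicua is known to exist in a long and a short form, and the genotype label names only the long one. For wild-type replicate 1 the extraction label names Trizol and RNeasy, which the labels of the other 7 arrays do not.

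When a growth factor binds its receptor kinase, adaptors such as Grb2 bring the exchange factor Sos to the membrane, Sos loads Ras with GTP, and Ras starts the chain from Raf through MEK to ERK. ERK signalling is known to inactivate Capicua, which frees its target genes, many of which encode feedback inhibitors of the same relay. In cerebellum these receptors are known for their parts in granule cell survival, in Bergmann glia and in the oligodendrocyte lineage. The comparison of mutant with wild-type asks here whether RNA of the relay itself differs when Capicua is altered.

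Cic, the altered gene, had log2 values of 8.74, 8.57, 8.63 and 9.19 in the wild-type arrays and 7.50, 7.48, 7.62 and 7.54 in the Cic-L-null arrays. The groups did not overlap. The difference of -1.25 (SE 0.12, adjusted p = 0.00818 with limma) passed the threshold, an adjusted p under 0.05 over all genes, but no longer did so without Cic-L-null replicate 2 (adjusted p = 0.0589) or with the replicate number as a block (adjusted p = 0.0564). All 8 Purkinje cell and all 9 granule cell markers measured lay above the dim limit of 6.21, the log2 value below which 95% of olfactory receptor genes fell, while 2 of 4 forebrain markers lay below it. Median log2 values over all probe sets lay between 7.82 and 7.88 on the 8 arrays.

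No gene of the relay passed the test between the genotypes. With limma, 0 of 37 passed the threshold, where 0.138% of all genes did (0.0884% higher and 0.0491% lower in the mutants), and the smallest adjusted p was 0.268, for Rras2. At an unadjusted p under 0.05 stood 7 of the 37, with 6 higher and 1 lower in the mutants, beside 9.26% of all genes (4.56% higher and 4.7% lower). Those higher were Ptpn9, Rps6ka3, Nf1, Ksr2, Rps6ka5 and Ntrk3, and the lower one was Rras2. Groups without overlap were found for 2 of the 37, Ptpn9 and Nf1, both higher, a share close to the 5.94% of all genes (3.02% higher and 2.91% lower).

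The differences were small, and the gene fit could miss shifts of that size. On simulated data it found 0.1% of shifts of 0.25 log2 units and 70.3% of those of 0.5. A difference is the mean log2 value of the mutants minus that of the wild-type arrays, and SE is the moderated standard error of that difference. The standard errors ranged from 0.054 to 0.11, and the differences of 25 of the 37 genes moved by over 1.5 times when 1 array was left out. For 36 of the 37 genes the 95% interval of the difference lay wholly within 0.5 log2 units of 0, which corresponds to 1.41-fold, the exception being Rras2. Met and Rasgrf2, among these 36, lay below the dim limit. There signal cannot be told from background, so their narrow intervals do not bound a change in RNA. Of the 37 genes, 26 had a difference above 0, and the median was 0.070, beside 47.0% above 0 and a median of -0.0071 over all genes.

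**Figure D1:**
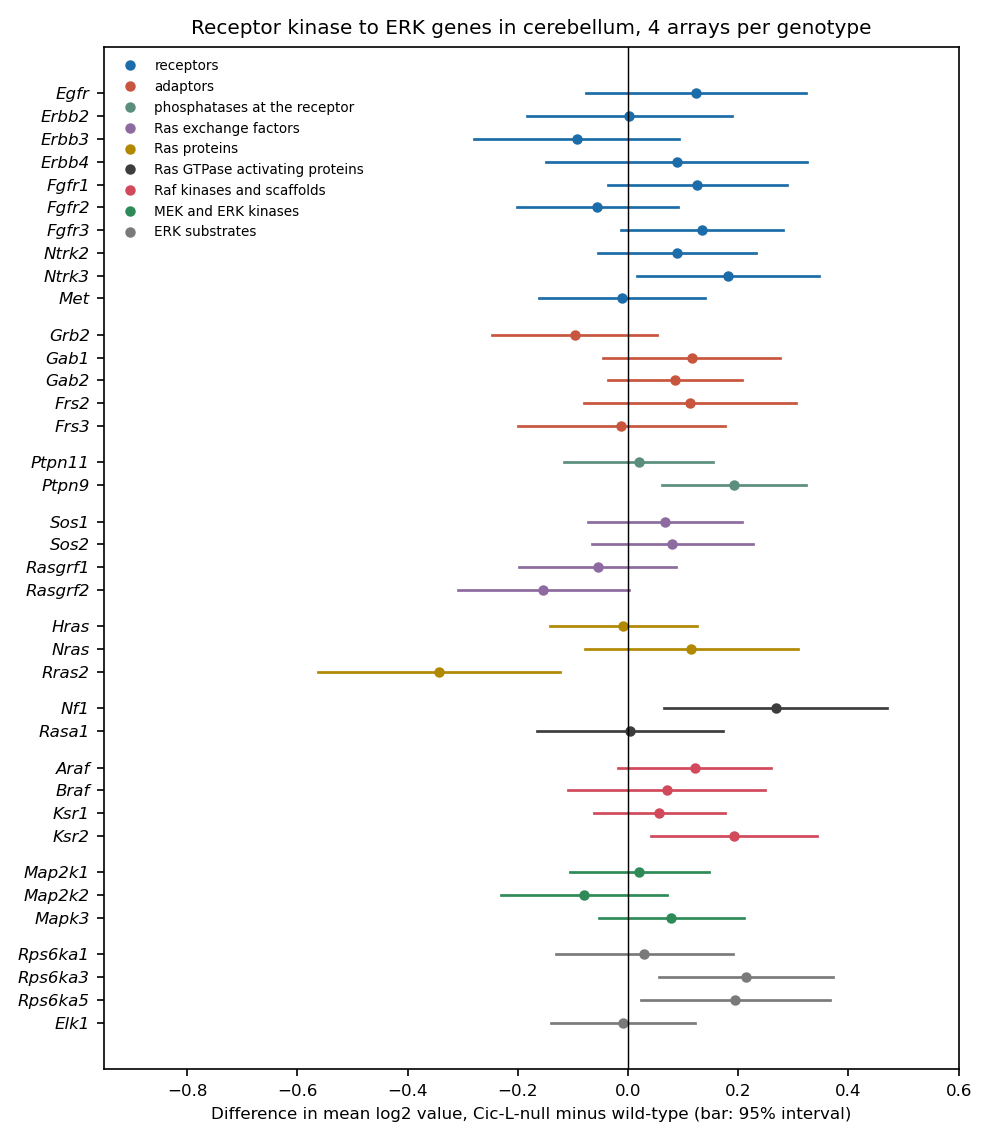
Log2 difference, mutant minus wild-type mean, of the 37 genes measured, with the 95% interval of the limma fit as a bar and colours for the role of the gene. Nf1 stands highest at 0.27 and Rras2 lowest at -0.34, the only gene whose bar reaches beyond -0.5.

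The share of positive differences moved with the number of probe sets that a gene has on the array. Among all genes above the dim limit, the median difference was -0.014 for genes with 1 to 10 probe sets, 0.0051 for those with 11 to 20, and 0.030 for those with over 20. The shares above 0 were 43.7%, 52.2% and 63.4% in that order. The relay genes have many probe sets, with a median of 21. In the class with over 20 probe sets, 15 of 18 relay genes lay above 0, with a median of 0.075. In the class with 11 to 20, 9 of 11 did, with a median of 0.11, and in the class with up to 10, 2 of 6 did, with a median of -0.010. Centring each array on the bright genes with over 20 probe sets, an alternative chosen after seeing the data, lowered the median of the 37 to 0.031. The part of probe set number in the differences was not tested beyond this.

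**Figure D2:**
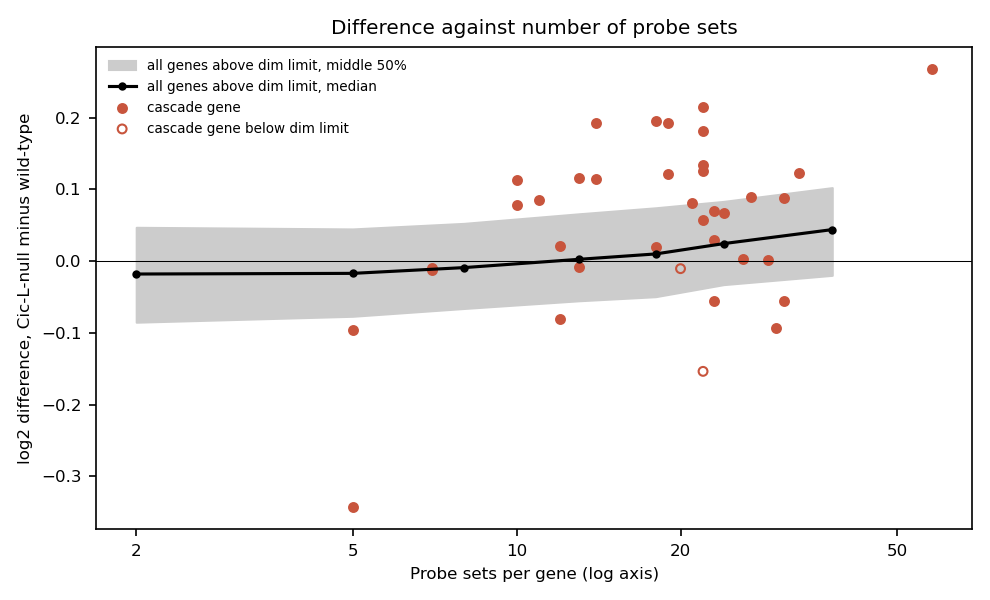
Difference of each gene against its number of probe sets on a log axis, for the 37 relay genes (red, open where below the dim limit) and for all genes above the dim limit (black median, grey band from the lower to the upper quartile). The black median climbs from -0.018 at 1 to 3 probe sets to 0.044 above 30, and 15 of the 18 filled red points with over 20 probe sets lie above 0.

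The arrays did not separate by genotype over the relay as a whole. Relative to each gene's wild-type mean, the median over the 37 genes was 0.065, 0.012, -0.038 and -0.035 in wild-type replicates 1 to 4, and 0.075, 0.034, 0.045 and 0.063 in Cic-L-null replicates 1 to 4. Wild-type replicate 1, the array with the differing extraction label, thus lay among the mutants. That position was not particular to the relay. Over the 2133 genes above the dim limit with over 20 probe sets, wild-type medians by replicate were 0.060, -0.029, -0.062 and -0.025. The mutant ones were 0.030, -0.011, 0.0090 and 0.037. These started from another reference level, and wild-type replicate 1 was the highest. It stood at 0.059 over genes with 11 to 20 probe sets and 0.014 over those with 1 to 10. The median difference of the 37 genes was 0.084 without wild-type replicate 1 and 0.044 without wild-type replicate 3.

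Among the 10 receptors, Ntrk3 had the smallest p. It encodes the receptor of neurotrophin-3, which supports granule cells. Its log2 values were 9.44, 9.57, 9.45 and 9.39 in wild-type and 9.70, 9.46, 9.70 and 9.72 in Cic-L-null. Replicate 2 of the mutants lay within the wild-type range and the other 3 lay above it, so the groups overlapped. The difference was 0.18 (SE 0.074), with an adjusted p of 0.472 in limma, and 19 of its 22 probe sets had a higher mean in the mutants.

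None of the other receptors reached an unadjusted p under 0.05. Ntrk2, the receptor of brain-derived neurotrophic factor, had means of 9.90 in wild-type and 9.99 in the mutants, a difference of 0.089 (SE 0.065). Of the fibroblast growth factor receptors, Fgfr3, which marks astrocytes, had means of 8.99 and 9.12, a difference of 0.13 (SE 0.066). Fgfr1, which is widespread in neurons, had means of 9.68 and 9.80, a difference of 0.13 (SE 0.073). Fgfr2, known from oligodendrocytes and other glia, had means of 8.64 and 8.59, a difference of -0.056 (SE 0.066).

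In the epidermal growth factor receptor family, Egfr itself had means of 7.86 in wild-type and 7.99 in the mutants, a difference of 0.12 (SE 0.090). Erbb2, which has no ligand of its own and pairs with the others, stood at 7.01 in both groups (difference 0.0019, SE 0.084). The neuregulin receptor Erbb3 had means of 7.99 and 7.90, a difference of -0.093 (SE 0.084), and turned sign under 1 of 20 alternative settings. Some of those settings leave every difference unchanged. Erbb4, the neuregulin receptor of neurons, had means of 9.48 and 9.57, a difference of 0.088 (SE 0.11) that was 0.0015 without Cic-L-null replicate 1. Met, the receptor of hepatocyte growth factor, lay below the dim limit in both groups, at 5.32 and 5.31 (difference -0.010, SE 0.068).

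Adaptors and docking proteins were also without a call. Gab1, a docking protein that binds the phosphatase Ptpn11, had the smallest p of these 5 genes. Its values were 9.20, 9.08, 9.11 and 9.22 in wild-type and 9.09, 9.33, 9.38 and 9.28 in Cic-L-null, and replicate 1 of the mutants lay within the wild-type range while the other 3 lay above it. The difference was 0.12 (SE 0.072, adjusted p = 0.695 in limma). It was 0.026 with the median over its probe sets and 0.17 without Cic-L-null replicate 1. Its paralogue Gab2 had means of 8.09 in wild-type and 8.17 in the mutants, a difference of 0.085 (SE 0.055). Of the docking proteins of fibroblast growth factor receptors, Frs2 had means of 8.40 and 8.51, a difference of 0.11 (SE 0.087), and Frs3 had means of 8.27 and 8.26, a difference of -0.012 (SE 0.085). Grb2, which links receptors to Sos, had means of 9.52 and 9.42, a difference of -0.097 (SE 0.068) that turned sign under 2 of 20 alternative settings.

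Of the tyrosine phosphatases, Ptpn9 was among the 2 relay genes whose groups did not overlap. Its values were 8.71, 8.62, 8.52 and 8.57 in wild-type and 8.85, 8.78, 8.80 and 8.76 in Cic-L-null. Every mutant array thus lay above every wild-type array. The difference was 0.19 (SE 0.059, adjusted p = 0.309 in limma). An exact two-sided permutation test over the 70 splits gives any gene without overlap p = 0.0286, the smallest they can give, and 0.481 after adjustment over all genes. Of its 14 probe sets, 13 were higher in the mutants, 1 of them without overlap, beside 2.44% of all probe sets in this direction. Ptpn11, a phosphatase that promotes Ras activation, had means of 10.15 in wild-type and 10.17 in the mutants, a difference of 0.019 (SE 0.061).

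Capicua is known to bind octamers of the form TGAATGAA, TGAATGGA, TCAATGAA and TCAATGGA, so these 4 were searched on both strands in promoter windows of RefSeq (build GRCm38.p6) that run from 250 bases before a gene's start to 50 after it. Windows were found for 31 of the 37 relay genes, and 2 of the 31 (6.45%) held an octamer, beside 4.45% of all genes with a window. Of 22 feedback genes and Capicua targets, listed with earlier results of these data known, 16 had a window. Of the 16, 4 held an octamer (25%). These were Dusp6, with a difference of 0.49, Shc4, with 0.42, Spred3, with 0.20, and Spry2, with -0.0052. Of these only Dusp6 passed the threshold, and Dusp4, the other gene of that list to pass it, was not among the 4. The sites of the 2 relay genes are shown with the 2 of Dusp6, an ERK phosphatase whose RNA rose in the mutants, because Ptpn9 and Dusp6 hold the same octamer. Each line gives 30 bases in the direction of the gene, with the octamer in capitals, and in Dusp6 it lies on the opposite strand.
Ptpn9, chr9:56994971-56995000, plus strand: tgctcagtttcTCAATGGAgccgtgggggg
Grb2, chr11:115699928-115699957, minus strand: caagttgggcgTGAATGGAgctggtgctca
Dusp6, chr10:99263196-99263225, plus strand: gagagaatgtaTCCATTGAgacgctggctg
Dusp6, chr10:99263221-99263250, plus strand: ggctgtttgtaTCCATTGAggagctgcctc
The match in Grb2 begins 18 bases before the start and that in Ptpn9 lies within the first 50 transcribed bases. A match in these letters is a description of the window. Of the 2 relay genes with a match, Ptpn9 had a difference above 0 and Grb2 one below it.

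Exchange factors load Ras with GTP. Rasgrf2, a calcium-responsive one, had the smallest p of the 4 at values below the dim limit. They were 5.82, 5.62, 5.74 and 5.56 in wild-type and 5.50, 5.47, 5.62 and 5.53 in Cic-L-null, and replicate 3 of the mutants lay within the wild-type range while the other 3 lay below it. The difference was -0.15 (SE 0.070, adjusted p = 0.548 in limma), but it turned to 0.12 when a gene's value was the median over its probe sets. Only 9 of its 22 probe sets lay above the probe set dim limit of 6.31. Its paralogue Rasgrf1, a gene of mature neurons, had means of 10.24 in wild-type and 10.19 in the mutants, a difference of -0.055 (SE 0.064). Of the exchange factors that Grb2 carries, Sos1 had means of 8.59 and 8.66, a difference of 0.068 (SE 0.063), and Sos2 had means of 8.98 and 9.06, a difference of 0.081 (SE 0.066).

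Of the Ras proteins, Rras2 had the largest difference of the 37 genes. It encodes a Ras relative that can itself activate Raf and phosphoinositide 3-kinase. Its values were 8.63, 8.64, 8.55 and 8.71 in wild-type and 8.59, 8.20, 8.30 and 8.08 in Cic-L-null. Replicate 1 of the mutants lay within the wild-type range and the other 3 lay below all wild-type arrays. The difference was -0.34 (SE 0.099, adjusted p = 0.268 in limma), which was -0.44 without Cic-L-null replicate 1 and -0.27 without Cic-L-null replicate 4. All 5 of its probe sets were lower in the mutants, from -0.47 to -0.26, none without overlap. Rras2 lies on chromosome 7, as do Cic and 5 other relay genes. Of the classical Ras genes, Hras had means of 8.49 in wild-type and 8.48 in the mutants, a difference of -0.0086 (SE 0.060), and Nras had means of 8.49 and 8.60, a difference of 0.11 (SE 0.087).

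Markers of mature oligodendrocytes had lower means in the mutants. All 14 measured had a difference below 0, with 5 at an unadjusted p under 0.05 and 0 past the threshold in limma. Their summed level, the log2 of the sum of unlogged values, ranged from 14.03 to 14.08 in wild-type and from 13.80 to 13.93 in Cic-L-null, and none of the 14 was below the dim limit. Erbb3 and Fgfr2, both known from the oligodendrocyte lineage, differed by -0.093 (SE 0.084) and -0.056 (SE 0.066). Neither reached an unadjusted p under 0.05 in limma. Markers of oligodendrocyte precursors were split, with 5 of 10 above 0 and 5 below. Of 10 markers of Bergmann glia and astrocytes, 9 were below 0, with summed levels of 13.52 to 13.67 in wild-type and 13.44 to 13.49 in Cic-L-null, none below the dim limit. Of these Fabp7, a fatty acid binding protein of Bergmann glia, fell by 1.17 on the log2 scale (adjusted p = 0.0180 in limma), a call lost with the replicate number as a block and without Cic-L-null replicate 2. The difference of the astrocyte gene Fgfr3 was above 0. Of 10 endothelial and pericyte markers 9 were below 0, with 2 at an unadjusted p under 0.05, and of 8 choroid plexus markers 6 were, with 1, and in limma 0 of either list passed. The part of these cell types in the differences of the relay genes was not tested. In whole tissue, fewer cells of a type and less RNA per cell cannot be told apart.

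Nf1 encodes neurofibromin, a GTPase activating protein that switches Ras off, and was the other relay gene whose groups did not overlap. Its values were 10.43, 10.28, 10.35 and 10.01 in wild-type and 10.56, 10.46, 10.47 and 10.65 in Cic-L-null. Every mutant array lay above every wild-type array by a narrow gap, and wild-type replicate 4 lay well below the other 3. The difference was 0.27 (SE 0.092, adjusted p = 0.364 in limma), and 0.18 without wild-type replicate 4. Of its 58 probe sets, 57 were higher in the mutants, 11 of them without overlap, beside 4.38% of all probe sets without overlap in either direction and 2.44% in this one. Probe sets of a gene read the same RNA and are not replicates. Rasa1, the other GTPase activating protein of the list, had means of 9.49 in wild-type and 9.50 in the mutants (difference 0.0036, SE 0.076), with 11 of 26 probe sets higher.

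**Figure D3:**
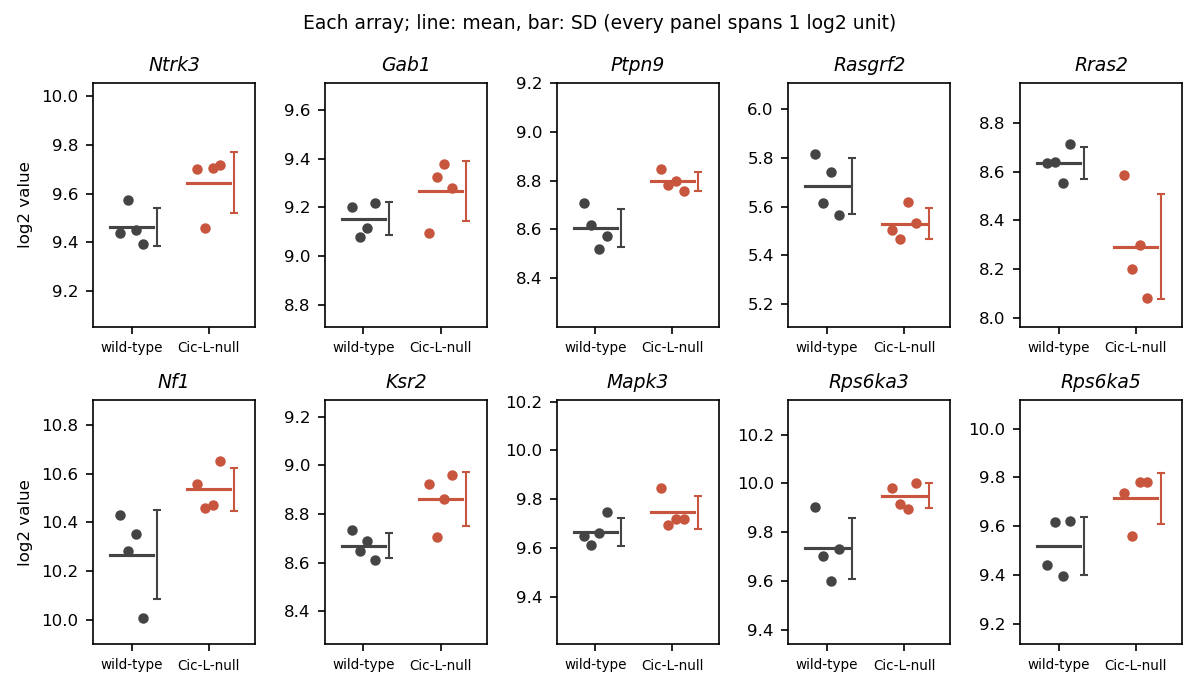
Log2 values, by array, of the 10 genes that have the smallest p of their role or an unadjusted p under 0.05, for the 4 wild-type (grey) and 4 Cic-L-null (red) arrays, with mean (line) and SD (bar). Each panel spans 1 log2 unit, and the groups are apart for Ptpn9 and Nf1 alone.

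The Raf kinases and the scaffolds that hold Raf and MEK together were all above 0, 4 of 4, and kept that sign under every alternative run. Ksr2, a scaffold of the brain, had values of 8.73, 8.65, 8.69 and 8.61 in wild-type and 8.92, 8.71, 8.86 and 8.96 in Cic-L-null. Replicate 2 of the mutants lay within the wild-type range and the other 3 lay above it. The difference was 0.19 (SE 0.068, adjusted p = 0.378 in limma). Of its 19 probe sets, 18 were higher, 5 of them without overlap, beside 2.44% of all probe sets in this direction. Its paralogue Ksr1 had means of 7.46 in wild-type and 7.52 in the mutants, a difference of 0.057 (SE 0.054). The kinase Araf had means of 9.06 and 9.18, a difference of 0.12 (SE 0.063), and Braf, the Raf kinase with the highest activity, had means of 10.01 and 10.08, a difference of 0.070 (SE 0.081).

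At the core of the relay, no MEK or ERK gene reached an unadjusted p under 0.05. The MEK gene Map2k1 had means of 10.35 in wild-type and 10.37 in the mutants, a difference of 0.021 (SE 0.057) with a 95% interval from -0.11 to 0.15. The other MEK gene, Map2k2, had means of 8.87 and 8.79, a difference of -0.081 (SE 0.068) with an interval from -0.23 to 0.070. Mapk3, an ERK gene, had values of 9.65, 9.61, 9.66 and 9.75 in wild-type and 9.85, 9.70, 9.72 and 9.72 in Cic-L-null. Replicate 1 of the mutants lay above all wild-type arrays and the other 3 lay within their range. The difference was 0.079 (SE 0.060, adjusted p = 0.766 in limma) and 0.045 without Cic-L-null replicate 1. All 10 of its probe sets were higher in the mutants, from 0.018 to 0.14.

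Among ERK substrates, 2 kinase genes had an unadjusted p under 0.05. Rps6ka3 encodes an RSK kinase that ERK phosphorylates, and its values were 9.90, 9.70, 9.60 and 9.73 in wild-type and 9.98, 9.91, 9.90 and 10.002 in Cic-L-null. Wild-type replicate 1 lay just above the lowest mutant array, and the other 3 lay below all mutants. The difference was 0.21 (SE 0.071, adjusted p = 0.346 in limma). All 22 probe sets were higher, 7 of them without overlap, beside 2.44% of all probe sets in this direction. Rps6ka5 encodes a kinase of histones and of the transcription factor Creb1. It had values of 9.44, 9.62, 9.40 and 9.62 in wild-type and 9.73, 9.56, 9.78 and 9.78 in Cic-L-null. Replicate 2 of the mutants lay within the wild-type range and the other 3 above it. The difference was 0.19 (SE 0.077, adjusted p = 0.459 in limma). The RSK gene Rps6ka1 had means of 10.39 in wild-type and 10.42 in the mutants, a difference of 0.030 (SE 0.072). Elk1, a transcription factor that ERK activates, had means of 9.60 and 9.59, a difference of -0.0090 (SE 0.059).

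Single probe sets showed how evenly these genes differed, although where in the transcript each one lies is not known here. Of the 738 probe sets of the 37 genes, 499 were higher in the mutants (67.6%), beside 51.5% of all probe sets. Groups without overlap were found for 45 of the 738 in the higher direction and for 5 in the lower, beside 2.44% and 1.94% of all probe sets. Of the 45, 27 belonged to Nf1, Rps6ka3, Ksr2 and Rps6ka5. Of the 5 lower ones, 3 belonged to Fgfr2, where the clearest had values of 8.47, 8.47, 8.41 and 8.52 in wild-type and 8.22, 8.02, 7.95 and 7.63 in Cic-L-null, a difference of -0.51. All 4 mutant arrays lay below all wild-type arrays there. Of its 23 probe sets in all, 15 were lower and 8 higher. The other lower ones were 1 of Erbb3, with a difference of -0.45, and 1 of Met.

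**Figure D4:**
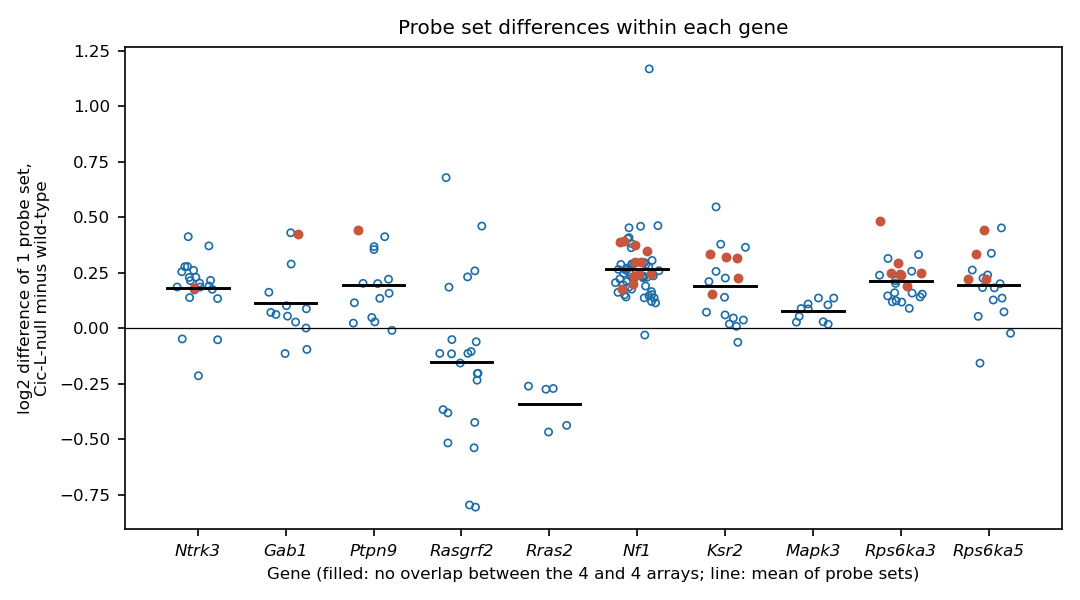
Log2 difference of each probe set, mutant minus wild-type mean, within the 10 genes, filled where the 4 mutant arrays do not overlap the 4 wild-type arrays, with the mean as a line. The probe sets of Nf1, Rps6ka3 and Mapk3 lie almost all above 0, those of Rras2 all below, and those of Rasgrf2 spread from -0.81 to 0.68.

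Whether a probe set departed from the rest of its gene was tested with diffSplice of limma over probe sets above the dim limit. At gene level 0 of 37 passed, where 0.498% of all genes did, and 1 of the 37 had an unadjusted p under 0.05, beside 5.47% of all genes. The smallest gene-level p were those of Araf and Fgfr2, with adjusted p of 0.813 and 0.953 in limma. At the level of single probe sets 2 of 678 passed, where 0.246% of all did, 1 in Nf1 and 1 in Nras. That of Nf1 rested on a single array, with 5.77 in wild-type replicate 4 against 9.29 to 10.58 in the other wild-type arrays, and its departure was 0.92 with all arrays and -0.062 without that array. It also missed the threshold without Cic-L-null replicate 1, 2 or 4. That of Nras, at 6.31, 5.50, 6.97 and 6.69 in wild-type and 7.30, 7.27, 7.29 and 7.16 in Cic-L-null, departed by 0.85 (adjusted p = 0.0377), but missed the threshold without wild-type replicate 1 or 2 or any single Cic-L-null array. This test assumes 1 spread for all probe sets of a gene and made 888 false calls on simulated data, against 382 calls in all on the real data. The simulation drew probe sets independently with their observed spread, so its rate of false calls need not hold for the real data. A form with the spread of each probe set's own departure made 3 false calls on the simulated data. It found 39% of the departures of 1 log2 unit put in, where diffSplice found 82%. With it, 0 of 678 passed in limma, where 0.00129% of all did, and 26 (3.83%) had an unadjusted p under 0.05, beside 5.03% of all.

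Other genes of the pathway, from lists written with earlier results of these data known, gave calls only among feedback genes and Capicua targets. Of 22 such genes, 2 rose and 0 fell over all genes, where 0.0884% of all genes rose. These were Dusp4 and Dusp6, phosphatases that inactivate ERK, at 0.94 (SE 0.14, adjusted p = 0.0301 in limma) and 0.49 (SE 0.076, adjusted p = 0.0447). Of the 22, 17 lay above 0 with a median of 0.16, and 8 had groups without overlap, all in the higher direction, beside 3.02% of all genes. The number of calls over all these pathway lists was 3 without wild-type replicate 1 and 0 without any 1 of the other 7 arrays.

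The ligands of the listed receptors had 0 calls among 29 in limma, with 2 at an unadjusted p under 0.05, both higher. These were the neuregulin genes Nrg1, at 0.27 (SE 0.085), and Nrg3, at 0.27 (SE 0.086), of which the first encodes ligands of Erbb3 and Erbb4 and the second a ligand of Erbb4. The groups of both overlapped, and 20 of the 29 ligand genes lay below 0, with a median of -0.021. The other receptor kinases had 0 calls among 29, with 5 at an unadjusted p under 0.05. The insulin-like growth factor receptor gene Igf1r had the smallest p, at 0.42 (SE 0.084, adjusted p = 0.0964 in limma), followed in order of p by Ryk, a receptor of Wnt proteins, at 0.20 (SE 0.062). The median of that list was -0.048, with 19 of 29 below 0.

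Other adaptors and Ras regulators had 0 calls among 32 in limma, 6 at an unadjusted p under 0.05 and a median of 0.020. Rasa3, a GTPase activating protein, differed by 0.22 (SE 0.056) and the exchange factor gene Rasgrp1 by 0.23 (SE 0.062). They were the 2 of the 32 without overlap between groups (6.25%), a share close to the 5.94% of all genes. Other Ras, Raf, MEK and ERK genes had 0 calls among 14, 3 at an unadjusted p under 0.05 and a median of -0.011. Map3k1, a kinase that can activate MEK, differed by 0.28 (SE 0.067) and Mos, a kinase of germ cells that lay below the dim limit, by -0.33 (SE 0.10). Other scaffolds and ERK substrates had 0 calls among 19, 1 at an unadjusted p under 0.05 and a median of -0.022. The scaffold gene Cnksr1, also below the dim limit, differed by -0.36 (SE 0.093) and Creb1 by 0.12 (SE 0.058).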

How the data were processed

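The deposited table holds log2 expression values of 241576 probe sets, which the authors summarised by RMA. The submitters' processing notes name Affymetrix Power Tools for this. For its version and the genome build, the sources used here give nothing. RMA gives arrays a common distribution, so a shift of all RNA would not be seen, and arrays give no read depth. Probe sets carrying 1 gene symbol in the platform annotation, which is old, were averaged per gene, with symbols updated through RefSeq (GRCm38.p6). Groups and replicate numbers came from the titles. Gene values were compared by lmFit and eBayes, with no variance trend, in limma 3.58.1 (R 4.3.3), with Benjamini-Hochberg adjustment over 20352 genes and the group as only term. Probe set departures were fitted with diffSplice and, added later because diffSplice called too much on simulated data, with a variance per probe set. The gene fit, tested on simulated data, found almost none of the shifts of 0.25 log2 units and most of those of 0.5. Genes with an unadjusted p under 0.05 and the smallest p of each role are given by array, and the 2 with the smallest p from each other list. The members and lists were chosen with earlier results of these data known. The p-values measure the spread between 4 animals a group, whose small number limits the precision. Alternatives covered probe set summary, dim filter, normalisation, variance model, array weights, replicate block, a Y-linked covariate, threshold, a permutation test and each array left out. Same-numbered arrays are not stated to be paired.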

Additional observations from a re-analysis of the deposited data

Results flagged for a closer look

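Of 76 groups of 4 arrays checked, the 2 groups of each of the 37 relay genes and of Cic, 4 had an array far from the other 3, while chance alone flags about 1 in 20 groups. Fgfr3 was 8.93 in wild-type replicate 4, against 9.01 in each of the other wild-type arrays. Ntrk3 was 9.46 in Cic-L-null replicate 2, against 9.70 to 9.72 in the other mutants. Met, below the dim limit, was 5.14 in Cic-L-null replicate 4, against 5.35 to 5.39. Mapk3 was 9.85 in Cic-L-null replicate 1, against 9.70 to 9.72.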

How the results depend on the processing

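No relay gene passed the threshold under any of the 20 alternatives to the gene fit, 19 planned and 1 added, and 25 of the 37 kept the sign of their difference under all that could be computed for them. The smallest adjusted p of any relay gene over them was 0.0956, that of Rras2 without Cic-L-null replicate 1. The looser threshold, permutation test, trended variance, replicate block and dim filter leave every difference as it was and cannot turn a sign. The permutation test could also call no gene, since its smallest adjusted p was 0.481. Of the 10 genes given by array, only Rasgrf2 turned sign, at 0.12 with the median of the probe sets. The median difference of the 37 was 0.031 when centred on bright genes with over 20 probe sets. Calls over all genes, 28 as reported, and those among other pathway genes, 2 as reported, were 2 and 0 with the median of the probe sets, 69 and 4 among genes above the dim limit, 130 and 7 with a trended and robust variance, 54 and 4 with array weights, 18 and 0 with a Y-linked covariate, 96 and 5 at an adjusted p under 0.10, and 6 and 0 centred on bright genes with over 20 probe sets. With brighter probe sets only, 1 other pathway gene was called. With the replicate number as a block these calls were 0 and 0, and Cic missed the threshold (-1.25, adjusted p = 0.0564). Same-numbered arrays correlated in their deviations by 0.22, 0.00033, 0.21 and 0.026, and differently numbered ones by -0.23 to 0.13. The values of replicates 1 and 3 were the highest of all, and whether the arrays were paired was not tested further. As the labels state no pairs, the main fit took none. Without 1 array at a time, calls ranged from 0 to 37 over all genes and from 0 to 3 among other pathway genes, relay genes at an unadjusted p under 0.05 from 5 to 7, the median difference from 0.044 to 0.084, and the Cic difference from -1.32 to -1.11, missing the threshold only without Cic-L-null replicate 2. Relay probe sets departing from their gene, 2 as reported, ranged from 0 to 3 without 1 array, and were 1 with no dim limit, 1 with the replicate block and 0 with a variance per probe set. The cause of these shifts was not tested.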

Other observations

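Of the relay genes, 3 lie on the X chromosome, Araf, Rps6ka3 and Elk1. Y-linked genes stood high in wild-type replicates 1 and 4 and in Cic-L-null replicates 1, 2 and 4, with a mean log2 value of at least 9.11, and at 4.53 to 4.58 in the other 3 arrays. With that mean as a covariate, Rps6ka3 differed by 0.18 (SE 0.066), and 7 relay genes had an unadjusted p under 0.05, as many as without it. Leaving the probe set with the largest difference out of Nf1 gave 0.25 (SE 0.081) over the remaining 57, and the groups still did not overlap.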
